A study of Mus musculus with 20 samples.

Results

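The adrenergic receptors described here are 7 genes of 31053 in the deposited count tables: the β receptor genes Adrb1 and Adrb3, the α1 receptor genes Adra1a, Adra1b and Adra1d, and the α2 receptor genes Adra2a and Adra2b. They were chosen by symbol, and each symbol had 1 row in each of the 20 single-cell libraries of mouse interscapular brown adipose tissue (iBAT). Their levels were followed across stromal, endothelial, mural, Schwann, macrophage, dendritic and lymphoid cells, and across cold exposure, infusion of a β3 agonist and deletion of Adrb1.

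Adrenergic receptors are G-protein-coupled receptors for noradrenaline, which sympathetic nerves release in brown fat, and for adrenaline from the adrenal gland. β receptors couple to Gs, raise cyclic AMP through adenylyl cyclases and activate protein kinase A (PKA), whereas α2 receptors couple to Gi and lower cyclic AMP, and α1 receptors couple to Gq and activate phospholipase C. In adipose tissue Adrb3 is best known as the receptor of mature adipocytes, through which β3 agonists start lipolysis and thermogenesis, and α1 receptors are best known for contracting vascular smooth muscle.

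The C57 experiments used male C57BL/6J mice kept at room temperature (RT, 24 °C), exposed to cold (COLD, 6 °C for 4 days) or infused with the β3 agonist CL316,243 (CL, 0.75 nmol/hour for 4 days), with 2 replicates each. The Adrb1 line used female mice with floxed Adrb1 alleles (Adrb1 fl/fl), either without (WT) or with (KO) 1 copy of the tamoxifen-inducible Pdgfra-CreER (a CreERT2 allele in the study's methods), at RT and after COLD, with 1 experiment each. Both genotypes of this line received tamoxifen, and Cre acts in it only in cells that express Pdgfra, so Adrb1 was not targeted in the other cell types. Its RT libraries were made with version 3 of the Chromium kit and its COLD libraries with version 2, so that in this line temperature and kit cannot be told apart. In each experiment the cells of 3 to 4 mice aged 8 to 14 weeks were pooled and sorted into lineage-positive (Lin+, immune) and lineage-negative (Lin-) cells, which gave 1 library each.

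After the study's cell filters 126274 cells remained, with 2424 to 12894 cells and 7857161 to 41979839 unique molecular identifiers (UMIs) per library. A marker gate placed 101315 of them in a class, and the classes are called by the names of their markers with "-like". All markers of the 7 classes were detected in their own class in every library, which the gate itself favours. Classes held 40417 stromal-like, 10131 endothelial-like, 3537 mural-like, 945 Schwann-like, 12679 macrophage-like, 3836 dendritic-like and 12915 lymphoid-like cells, and 17293 gated cells sat at the gate's smallest permitted lead over another class. Among stromal-like cells the gate set apart the study's adipose stromal cell subtypes ASC1 (15178 cells), ASC2 (13333 cells) and ASC3 (3157 cells). The libraries of C57 RT replicate 2 (Lin-) and C57 CL replicate 2 stood apart. In the first, 72.0% of the barcodes exceeded the limit on mitochondrial reads and the UMI total was the lowest. In the second, the Lin+ and Lin- libraries shared 1098 barcodes, 17.1% of the smaller library, against at most 2.04% between any other 2 libraries. The Lin- library of KO RT had the next highest share of barcodes over the mitochondrial limit, 41.3%.

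Levels are UMI counts per 1000000 UMIs of the class (CPM), and their 95% intervals cover counting error only. A library is a pool of mice, so p-values measure spread between pools, not between single mice. In the tests between classes the pools also differ in treatment, line, sex and kit. In KO against WT each genotype and temperature has 1 pool, so no pools of the same kind are compared there. In the cells of the 7 classes in the 8 experiments without KO, 1588 UMIs were counted for Adra1b, 1220 for Adrb1, 548 for Adrb3, 332 for Adra1a, 176 for Adra2a, 102 for Adra2b and 5 for Adra1d. Libraries read only the 3′ ends of transcripts, and levels are compared here between classes within 1 gene, never between genes. In GRCm38 (GENCODE vM21) Adrb1 lies at chr19:56722199-56733113 and Adra2a at chr19:54044151-54048982, both on the forward strand. Adra1a lies at chr14:66635251-66771168 (forward), Adra1b at chr11:43774606-43901210 (reverse) and Adra2b at chr2:127363208-127367221 (forward, a single exon). Adrb3 at chr8:27225776-27250616 and Adra1d at chr2:131545850-131562283, both on the reverse strand, each overlap an antisense gene.

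The deletion was checked first, in the cells it targets. ASC1-like cells of the Adrb1 line held Adrb1 at 6.41 CPM (95% interval 3.08 to 11.8) in WT RT and 4.73 CPM (3.67 to 6.05) in WT COLD. In KO RT no Adrb1 UMI was found in 332 ASC1-like cells, which allows up to 2.27 CPM, and KO COLD held 0.496 CPM (0.136 to 1.28) in 971 cells. Both KO libraries thus lay below both WT libraries, as their labels say. Over both temperatures Adrb1 was 3.49 lower on the log2 scale in KO (SE 0.60, edgeR adjusted p = 0.0017), and 0.952% of the 11969 genes tested in ASC1-like cells passed the edgeR threshold. Adrb1 passed the filter on low counts through the WT libraries, where it was high, so its call describes these levels and is no further support. The fit had 1 residual degree of freedom, and neither DESeq2 (adjusted p = 1.00) nor a fit of all 10 Lin- libraries (adjusted p = 1.00) called it. The sources do not say whether the floxed part holds the 3′ end that these libraries read.

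The other cells of the KO mice kept Adrb1 UMIs. In mural-like cells Adrb1 was 50.3 and 66.8 CPM in WT RT and WT COLD and 81.0 and 79.8 CPM in KO RT and KO COLD. In macrophage-like cells it was 7.78 and 1.54 CPM in WT and 17.6 and 4.26 CPM in KO, in the same order. Neither class held less Adrb1 in KO than in WT. The differences of 0.39 (SE 0.25, adjusted p = 0.74) in mural-like and 1.25 (SE 0.39, adjusted p = 0.46) in macrophage-like cells did not pass the edgeR threshold. Of the 3 member tests possible in the classes outside ASC1-like and stromal-like cells, edgeR and DESeq2 each called 0, and 1 had an unadjusted p under 0.05, against a background of 0.053% (mural-like), 0.0729% (macrophage-like) and 0.125% (ASC2-like). In all stromal-like cells, which include the ASC1-like cells, Adrb1 was 2.49 lower in KO (SE 0.47) without passing (adjusted p = 0.29, background 0.0515%). The other members with a test in KO against WT, Adra1a, Adra1b and Adra2a, did not pass in any class.

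**Figure D1:**
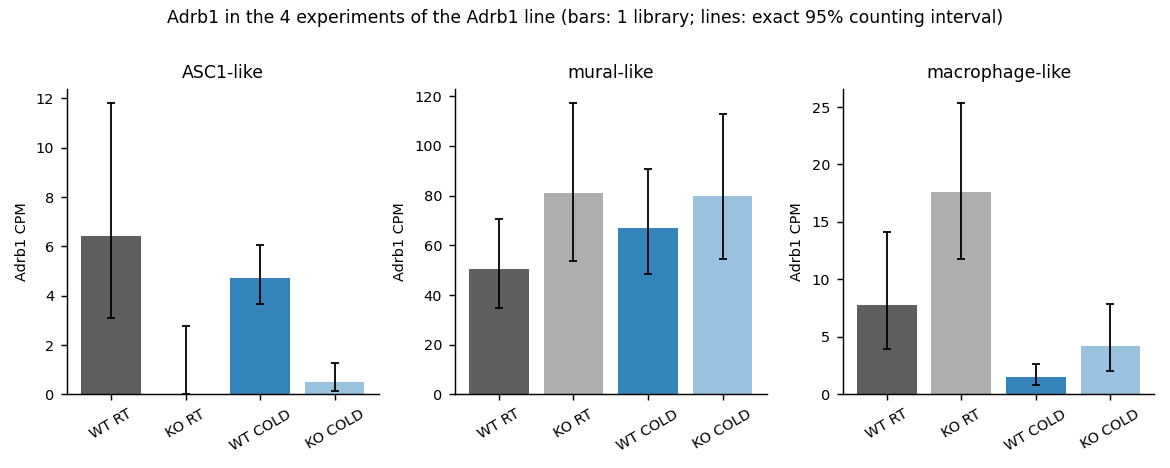
Adrb1 level (CPM of the class) in the 4 experiments of the Adrb1 line, for ASC1-like, mural-like and macrophage-like cells. Bars are single libraries and lines are exact 95% counting intervals. ASC1-like cells fell from 6.41 and 4.73 CPM in WT to 0 and 0.496 CPM in KO, whereas mural-like cells held 50.3 to 81.0 CPM in all 4.

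Adrb1, which couples to Gs and raises cyclic AMP, had its highest class level in mural-like cells. Over the 8 experiments without KO its level there ran from 47.2 through a median of 64.3 to 163 CPM, and no other class overlapped this range. Endothelial-like cells held 1.65 to 7.37 CPM (median 3.59), macrophage-like cells 0.502 to 10.1 CPM (median 4.00) and stromal-like cells 1.21 to 7.72 CPM (median 2.65). These 3 classes overlapped each other, and lymphoid-like, dendritic-like and Schwann-like cells held medians of 0.438, 0.0631 and 0 CPM. In the order of mean log2(CPM + 1), mural-like exceeded endothelial-like cells by 3.96 in 8 of 8 experiments, and stromal-like exceeded lymphoid-like cells by 1.41 in 8 of 8.

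For each of these 2 steps the exact paired permutation test gave p = 0.0078, the smallest that 8 pairs allow, and an adjusted p = 0.0656 over the 42 neighbour tests of the 7 genes, so no neighbour passed the correction. The other 4 steps of Adrb1 had p from 0.31 to 1.00 in the same exact test. Fitted across all genes in the 8 Lin- libraries, edgeR put Adrb1 4.18 higher in mural-like than in stromal-like cells (log2, SE 0.25, adjusted p = 8.3e-15) and 4.45 higher than in endothelial-like cells (SE 0.32, adjusted p = 7.1e-13). Adrb1 passed the filter on low counts through the mural-like cells, where it was high, so these differences describe the levels and are no further support. Endothelial-like and stromal-like cells differed by -0.28 (SE 0.36, adjusted p = 0.51).

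Adrb1 was not spread evenly over the mural-like cells. Those with pericyte markers held 70.9 to 344 CPM (median 193), and those with smooth muscle markers 10.2 to 47.7 CPM (median 21.8), with no overlap over the 8 libraries and the pericyte side higher in every one. Within stromal-like cells it sat mostly in ASC1-like cells, at 2.88 to 9.99 CPM (median 6.34), against 0 to 2.26 CPM in ASC2-like and 0 to 0.688 CPM in ASC3-like cells. Cells gated by adipocyte markers, present in 6 of the 8 libraries, held 0 to 32.8 CPM (median 19.2), and cells gated by epithelial markers, found in the Adrb1 line alone, held 31.8 CPM in WT RT and 34.9 CPM in WT COLD. These finer gates were not tested for Adrb1.

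Adrb3, the target of CL316,243, showed no class that stood out. Its range over the 8 experiments was 0.0757 to 11.9 CPM in stromal-like, 0 to 9.0 CPM in endothelial-like, 0 to 8.40 CPM in mural-like and 0 to 30.5 CPM in Schwann-like cells, the last being 1 UMI in 41 cells. The 4 ranges overlapped, and all neighbours in its order had p from 0.0625 to 1.00 in the exact test. Macrophage-like cells were lowest at 0 to 0.698 CPM. Cells gated by adipocyte markers held far more, 80.6 to 499 CPM (median 128.1) over 6 libraries, the highest value resting on 12 cells, and in each of the 6 they exceeded every class of the same library.

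**Figure D2:**
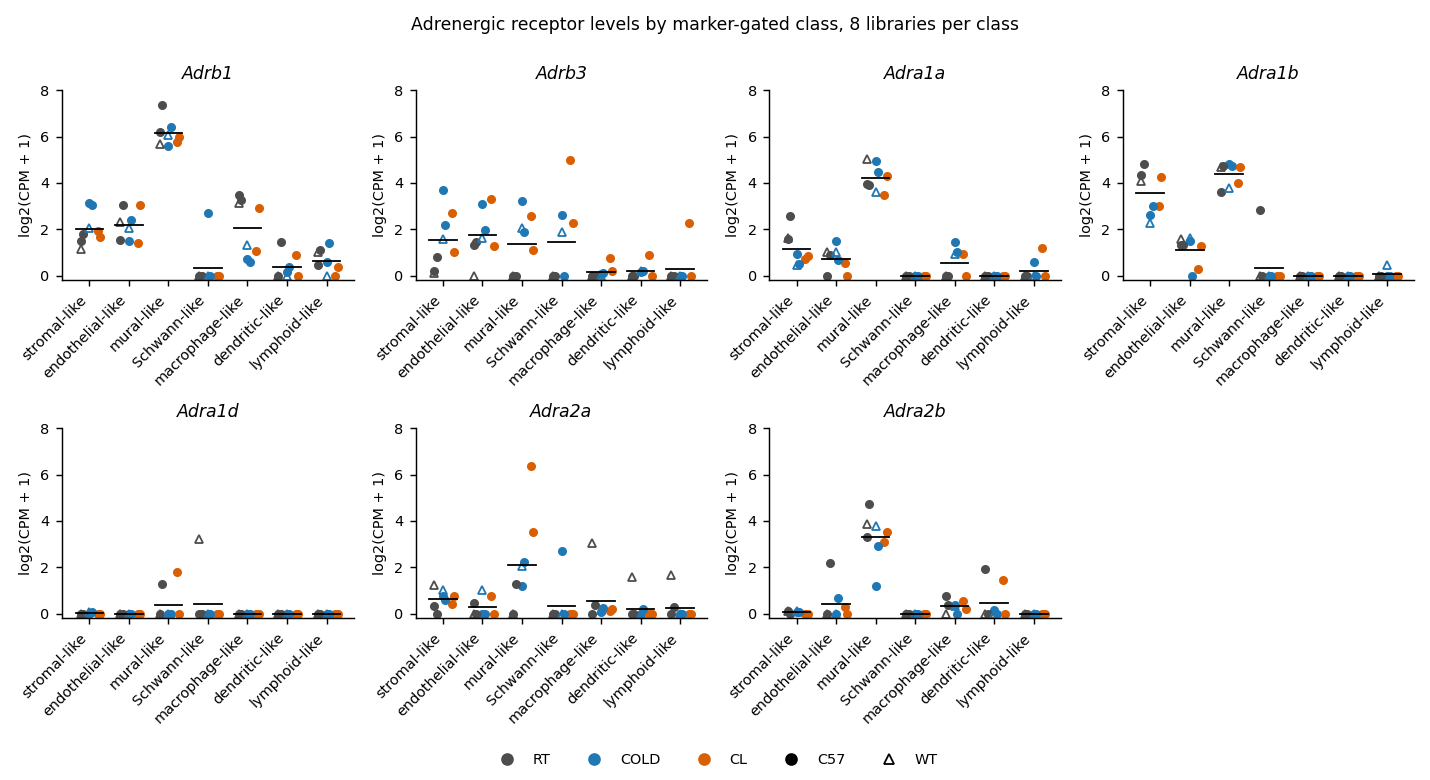
Level of each receptor gene as log2(CPM + 1) in 7 marker-gated classes, 8 libraries per class (6 C57 filled, 2 WT open) with colour for the treatment and a line at the mean. Adrb1, Adra1a, Adra1b and Adra2b have their highest mean in mural-like cells, where Adrb1 ran from 47.2 to 163 CPM, and Adra1b is also high in stromal-like cells.

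The α1 receptors, which activate phospholipase C through Gq, were found mainly in mural-like cells and, for Adra1b, in stromal-like cells. Adra1a was at 10.1 to 32.0 CPM (median 16.6) in mural-like cells and at 0.376 to 4.90 CPM (median 0.855) in stromal-like cells, with no overlap. It was higher in mural-like cells in 8 of 8 experiments (mean difference 3.05 in log2(CPM + 1), exact p = 0.0078, adjusted p = 0.0656). Dendritic-like and Schwann-like cells had no Adra1a UMI in any of the 8 libraries, which allows up to 0.114 and 1.97 CPM over the group. Its mural level came from the cells with smooth muscle markers, at 15.4 to 39.9 CPM (median 30.3), while 6 of 8 libraries had none in the cells with pericyte markers.

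Adra1b was at 11.3 to 26.7 CPM (median 24.4) in mural-like and 3.88 to 27.4 CPM (median 11.5) in stromal-like cells, and here the ranges overlapped. Mural-like cells were higher in 6 of 8 experiments (exact p = 0.0625, adjusted p = 0.29), and the edgeR difference of 0.64 (SE 0.27, adjusted p = 0.0427) was called in 4 of the 8 fits that left out a library and in 1 of 5 other alternatives. Stromal-like cells exceeded endothelial-like cells (0 to 2.10 CPM) in 8 of 8 experiments (exact p = 0.0078, adjusted p = 0.0656), and edgeR put endothelial-like cells 3.44 lower (SE 0.41, adjusted p = 1.4e-08). Macrophage-like cells had no Adra1b UMI in any of the 8 libraries, which allows up to 0.0474 CPM over the group, and dendritic-like cells had none either.

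Both sources of Adra1b were narrow. Within stromal-like cells ASC2-like cells held 13.8 to 85.6 CPM (median 34.2), against 0 to 1.01 CPM in ASC1-like and 0 to 5.98 CPM in ASC3-like cells, so that ASC2-like cells stood above both without overlap. In the edgeR fit Adra1b was 6.05 higher in ASC2-like than in ASC1-like cells (SE 0.25) and 4.09 higher than in ASC3-like cells (SE 0.33). It passed the filter on low counts through the ASC2-like cells, where it was high, so these differences are given as sizes and not as support. Within mural-like cells those with smooth muscle markers held 17.7 to 51.7 CPM, and 7 of 8 libraries had no Adra1b UMI in those with pericyte markers. Adra1b thus had its higher mural level in the same gate as Adra1a, and its highest stromal level in another subtype than Adrb1. Cells holding UMIs of both genes were not counted.

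Adra1d had 5 UMIs in the 7 classes, 2 in stromal-like, 2 in mural-like and 1 in Schwann-like cells, and each of these sums is under the 3 counts that a count of 0 allows. The filter on low counts kept it out of every test. With no filter edgeR called it in no comparison, the smallest unadjusted p being 0.0439 for mural-like against stromal-like cells (2.67 higher, SE 1.26, adjusted p = 0.107).

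The α2 receptors couple to Gi and lower cyclic AMP. Adra2b was at 1.28 to 25.4 CPM (median 9.70) in mural-like cells and at most 3.50 CPM in any library of another class. Mural-like cells exceeded dendritic-like cells, the next in its order, in 8 of 8 experiments (mean difference 2.86 in log2(CPM + 1), exact p = 0.0078, adjusted p = 0.0656). Unlike Adrb1 and the α1 receptors, its ranges overlapped between both kinds of mural-like cells, at 0 to 22.7 CPM in those with pericyte markers and 1.82 to 29.0 CPM in those with smooth muscle markers. The pericyte side was higher in 3 of the 8 libraries, each on 0 to 10 UMIs per side. No UMI was found in lymphoid-like or Schwann-like cells of the 8 experiments without KO.

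Adra2a was low in most libraries. Mural-like cells ranged from 0 through a median of 2.30 to 80.3 CPM, and the highest value, 31.9 UMIs in C57 CL replicate 1, made most of their mean. Stromal-like cells held 0 to 1.36 CPM, and among them ASC3-like cells were highest at 0 to 12.9 CPM (median 3.08) against medians of 0.217 CPM in ASC1-like and 0.117 CPM in ASC2-like cells. Of its 6 neighbour steps none had an exact p under 0.078. Cells gated by epithelial markers held 25.5 CPM in WT RT and 12.7 CPM in WT COLD.

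**Figure D3:**
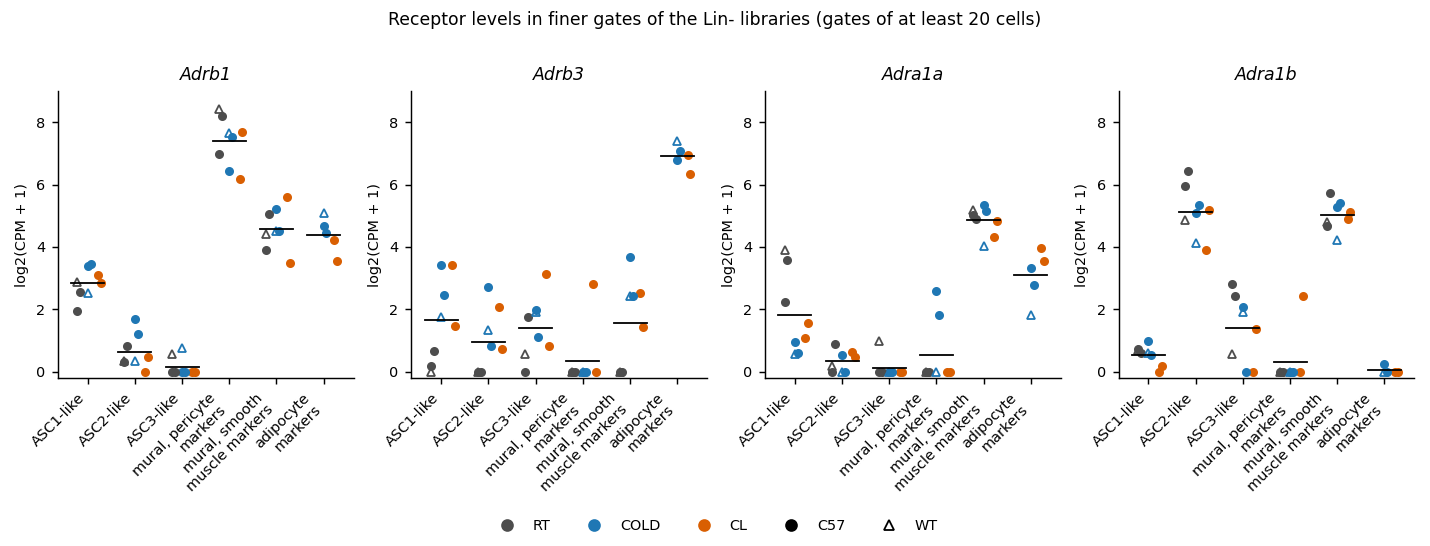
Levels of Adrb1, Adrb3, Adra1a and Adra1b as log2(CPM + 1) in finer gates of the Lin- libraries without KO (filled, C57; open, WT; gates of at least 20 cells; lines, means). Adrb1 is highest in mural-like cells with pericyte markers (70.9 to 344 CPM), Adra1a and Adra1b in those with smooth muscle markers (15.4 to 39.9 and 17.7 to 51.7 CPM) and Adra1b also in ASC2-like cells, while Adrb3 is highest in cells with adipocyte markers.

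In the edgeR fits between classes, only Adrb1 and Adra1b had enough counts in the Lin- classes to be tested. Of their 12 comparisons 8 were called. Background shares were 61.1% of all tested genes for mural-like against stromal-like cells, 56.1% for mural-like against endothelial-like, 67.7% for endothelial-like against stromal-like, 44.5% for Schwann-like against mural-like, 48.2% for Schwann-like against stromal-like and 50.2% for Schwann-like against endothelial-like cells. A share of 8 in 12 is near these backgrounds. Of the subtypes, where 45.8% (ASC2-like against ASC1-like), 34.8% (ASC3-like against ASC1-like) and 34.7% (ASC3-like against ASC2-like) of genes were called, only Adra1b was tested, and no member was tested between the Lin+ classes. A gene can pass the filter on low counts through a class where it is high alone, so these calls describe the levels of Adrb1 and Adra1b given above, and they say little about the 5 members left out.

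After cold the receptors of ASC1-like cells, which the study describes as precursors of new brown adipocytes, changed in both directions. Adrb1 was at 2.88 and 4.87 CPM in C57 RT, 9.49 and 9.99 CPM in COLD and 7.58 and 6.27 CPM in CL (replicates 1 and 2). COLD and RT did not overlap, and the level rose from 3.88 ± 1.41 to 9.74 ± 0.35 CPM (SD, n = 2 pools). The edgeR difference of COLD from RT was 1.52 (SE 0.28, adjusted p = 0.0127). It was not called without any one of the RT or COLD libraries (adjusted p = 0.0535 to 0.083), and in the Adrb1 line WT COLD (4.73 CPM) was not above WT RT (6.41 CPM).

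Adra1a, the Gq-coupled receptor, was at 3.67 and 11 CPM in C57 RT, 0.938 and 0.53 CPM in COLD and 1.14 and 1.95 CPM in CL. It fell in COLD by 2.99 on the log2 scale (SE 0.55, edgeR adjusted p = 0.0127), again with no overlap between RT and COLD. Adra1a passed the filter on low counts through RT, where it was high, and not through COLD. The calls on it in ASC1-like cells therefore describe these levels and carry no further weight. The Adrb1 line showed the same order, with 14.1 CPM in WT RT against 0.502 CPM in WT COLD and 6.04 CPM in KO RT against 0.25 CPM in KO COLD. The call was lost without COLD replicate 1 (adjusted p = 0.0629), COLD replicate 2 (0.0857) or RT replicate 2 (0.0759).

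Adrb3 was nearly absent from these cells at RT. It was at 0.132 and 0.58 CPM in C57 RT, 1 UMI each, and at 9.69 and 4.47 CPM in COLD and 9.63 and 1.78 CPM in CL. The edgeR difference of COLD from RT was 4.83 (SE 1.08, adjusted p = 0.0243), and WT COLD held 2.36 CPM where WT RT had none. With 1 UMI in each RT library, Adrb3 passed the filter on low counts only through the treated groups where it was high, so the calls on it in ASC1-like cells describe these levels and carry no further weight, and the size of the difference is uncertain. Without RT replicate 1 (adjusted p = 0.184), RT replicate 2 (0.0944) or COLD replicate 1 (0.0915) the call was lost.

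The make-up of the ASC1-like cells changed with cold as well. Cycling cells, those with at least 2 of the markers Top2a, Birc5, Mki67, Stmn1, Cdk1 and Ube2c, made up 0.53% and 0.0% of them in C57 RT, 21.8% and 16.8% in COLD and 7.56% and 1.81% in CL. In COLD the cycling cells held Adrb1 at 15.0 and 12.8 CPM against 7.13 and 9.12 CPM in the other ASC1-like cells, and Adrb3 at 19.8 and 7.78 CPM against 5.38 and 3.46 CPM. When cycling cells were left out, an alternative chosen after seeing the data, Adrb1 was still called in COLD (1.27 higher, SE 0.32, adjusted p = 0.0405), as was Adra1a (-2.84, SE 0.53, adjusted p = 0.0140). Adrb3 was then 4.15 higher without being called (SE 1.14, adjusted p = 0.0541).

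Adipocyte genes were also higher in the COLD and CL libraries of ASC1-like cells. Adipoq, which encodes adiponectin, was at 1.31 and 1.09 CPM in C57 RT, 102.7 and 47.5 CPM in COLD and 87.2 and 28.7 CPM in CL. All 6 adipocyte markers together (Adipoq, Plin1, Cidec, Ucp1, Nnat and Adig) summed to 281 and 98.7 CPM in RT, 380 and 235 CPM in COLD and 377 and 250 CPM in CL, and Nnat, which the study describes as a gene of early differentiation, made up 277 and 89.7 CPM of the RT sums and 207 and 142 CPM of the COLD sums. The sum thus moved far less than Adipoq. In C57 RT 19.5% and 6.46% of the ASC1-like cells held a UMI of at least 1 of the 6 markers, against 32.0% and 26.5% in COLD. The adipocyte gate held 0 and 12 cells in the C57 RT libraries and 731 and 167 in the COLD libraries.

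Per 100 Adipoq UMIs, ASC1-like cells held 9.44 and 9.43 Adrb3 UMIs in C57 COLD, cells of the adipocyte gate 5.33 and 6.57, and endothelial-like cells 12.3 and 15.7 (12.4 and 4.7 Adrb3 UMIs). The ratio was higher in ASC1-like cells than in the adipocyte gate in both C57 libraries, but not in WT COLD (10.2 against 11.5) or KO COLD (7.73 against 9.97, the latter from 8 cells). When cells with any UMI of an adipocyte marker were left out, an alternative chosen after seeing the data, Adrb3 was 3.17 higher in COLD (SE 1.60, adjusted p = 0.24) and Adrb1 1.31 higher (SE 0.37, adjusted p = 0.0595), neither called, while Adra1a stayed 3.44 lower (SE 0.79, adjusted p = 0.0295). What part adipocyte RNA had in the Adrb3 and Adrb1 results was not tested.

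**Figure D4:**
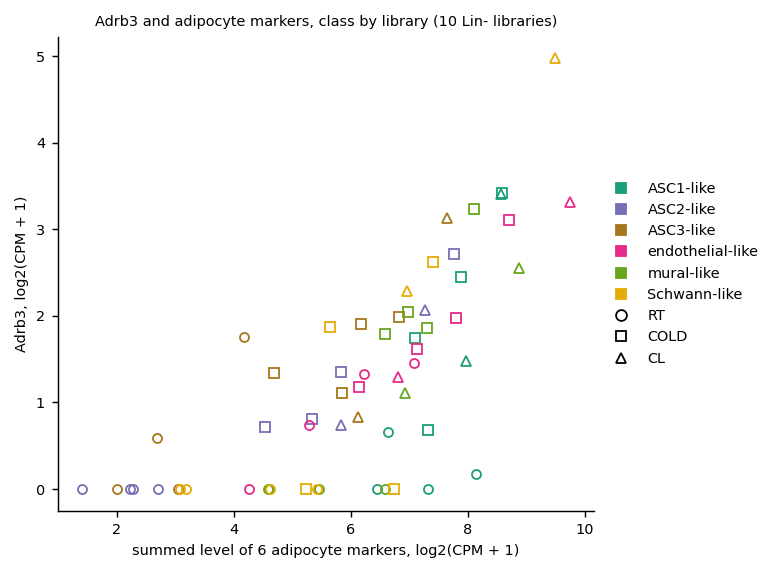
Adrb3 against the summed level of 6 adipocyte markers, both as log2(CPM + 1), for 6 gates (colour) in the 10 Lin- libraries (circle RT, square COLD, triangle CL). Points with a high marker sum mostly have a high Adrb3 level, except for ASC1-like cells at RT, where Nnat made up 277 of 281 CPM in C57 replicate 1. Points of 1 library share its depth.

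Taking all stromal-like cells, Adrb1 was at 1.81 and 2.50 CPM in C57 RT and 7.72 and 7.20 CPM in COLD, a rise of 1.86 (SE 0.29, edgeR adjusted p = 0.0265). This is not independent of the ASC1-like result, since these cells made up 41.9% and 39.3% of the stromal-like cells in RT and 55.1% and 52.5% in COLD. It too was not called without any one RT or COLD library (adjusted p = 0.114 to 0.186), nor without cells holding an adipocyte marker, where the rise was 1.62 (SE 0.34, adjusted p = 0.0575). Adrb3 (4.64, SE 1.11, adjusted p = 0.0544), Adra1a (-2.19, SE 0.52, adjusted p = 0.0526) and Adra1b (-1.84, SE 0.49, adjusted p = 0.0693) came close to the threshold in stromal-like cells without passing it. With the replicate number as a block all 3 passed, at 4.85 for Adrb3 (adjusted p = 0.0118), -2.17 for Adra1a (adjusted p = 0.0373) and -1.95 for Adra1b (adjusted p = 0.0226). Adrb3 had 2 and 3 UMIs in the RT libraries and passed the filter through the treated groups here too, so its call has the same limit as in ASC1-like cells.

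Adra1b was lower in the COLD libraries than in the RT libraries of its main stromal source as well. In ASC2-like cells it was at 60.6 and 85.6 CPM in C57 RT, 33.2 and 39.5 CPM in COLD and 13.8 and 35.3 CPM in CL, so neither treated group overlapped RT. The edgeR differences of -0.92 for COLD (SE 0.44, adjusted p = 0.66) and -1.25 for CL (SE 0.43, adjusted p = 0.35) did not pass. The Adrb1 line held 28.0 CPM in WT RT, 16.5 CPM in WT COLD, 21.2 CPM in KO RT and 22.2 CPM in KO COLD, which gave no common order by temperature.

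In macrophage-like cells, which take up and clear dying cells in the tissue, Adrb1 fell after cold. It was at 10.1 and 8.65 CPM in C57 RT, 0.647 and 0.502 CPM in COLD and 1.09 and 6.46 CPM in CL. The fall in COLD was -3.94 on the log2 scale (SE 0.82, edgeR adjusted p = 0.0094), and the Adrb1 line had the same order, from 7.78 to 1.54 CPM in WT and from 17.6 to 4.26 CPM in KO. Adrb1 passed the filter on low counts through RT, where it was high, and not through COLD. The calls on it in macrophage-like cells therefore describe these levels and carry no further weight. The call was lost without RT replicate 1 (adjusted p = 0.0827) or RT replicate 2 (0.0532) and held without cells with an adipocyte marker (adjusted p = 0.0042). The summed adipocyte markers were at 9.98 and 5.36 CPM in C57 RT and 14.4 and 8.56 CPM in COLD in these cells.

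The make-up of the macrophage-like cells shifted with cold. Cells on the side of Cbr2, Folr2, Lyve1 and F13a1, markers of resident tissue macrophages, made up 60.8% and 62.0% in C57 RT and 13.1% and 10.2% in COLD. Cells on the side of Gpnmb, Trem2, Cd9 and Spp1, markers of lipid-associated macrophages, made up 14.9% and 14.0% in RT and 72.8% and 77% in COLD. This split was set after the members' levels were seen. Adrb1 was at 14.3 and 8.98 CPM in RT and 2.63 and 0 CPM in COLD on the Cbr2 side, and at 5.19 and 11.3 CPM in RT and 0.307 and 0.416 CPM in COLD on the Gpnmb side. It was therefore lower in COLD on both sides, on counts of 0 to 22 UMIs per library, and these levels were not tested. Adra1a went the other way, with no UMI in the 2 C57 RT libraries and 1.70 and 1.01 CPM (28.9 and 12.0 UMIs) in COLD. It did not pass the filter on low counts with all libraries and could enter a test only through the group where it was high, so no test is given.

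**Figure D5:**
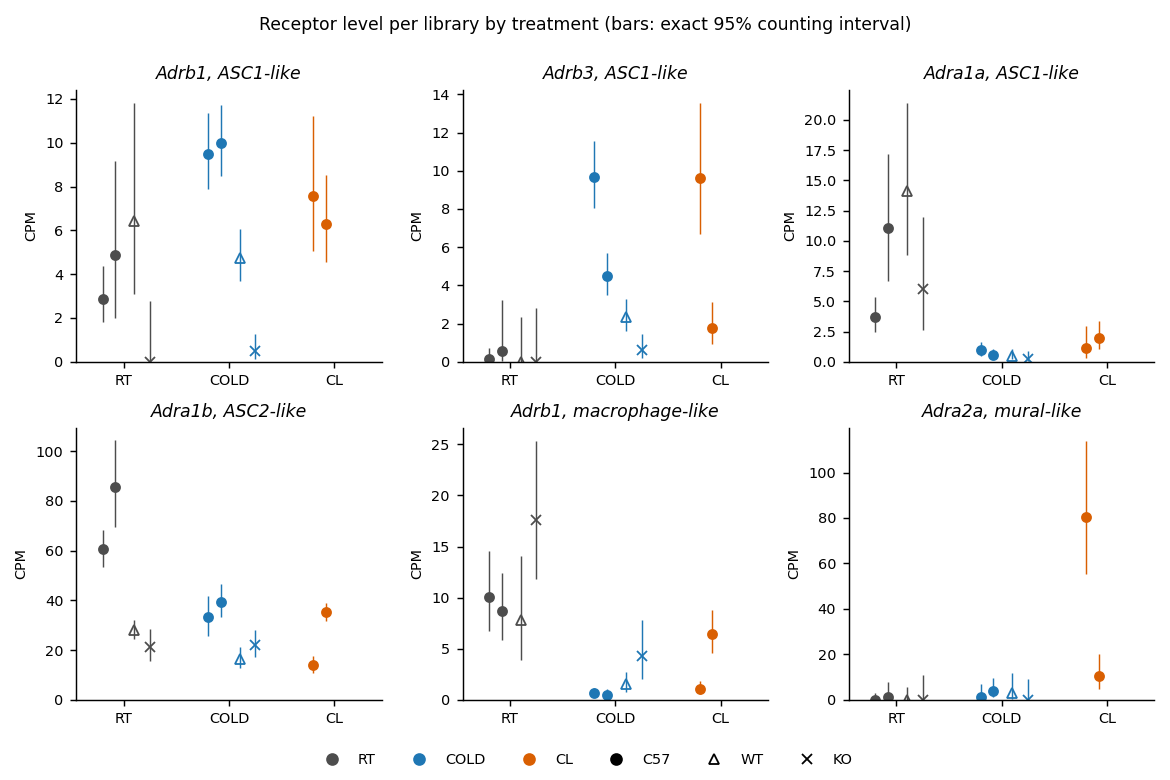
Level (CPM of the class) per library by treatment for 6 pairs of gene and class, with exact 95% counting intervals (filled, C57; open triangle, WT; cross, KO). Adrb1 and Adrb3 lie higher in COLD than in RT in C57 ASC1-like cells and Adra1a lies lower, Adrb1 lies lower in COLD in macrophage-like cells, and Adra2a in mural-like cells is high in 1 CL library (80.3 CPM).

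In total 5 of 16 member tests were called for COLD against RT, 3 of 3 in ASC1-like, 1 of 5 in stromal-like, 1 of 1 in macrophage-like, 0 of 2 in ASC2-like, 0 of 2 in endothelial-like and 0 of 3 in mural-like cells. The backgrounds were 15.1% of genes in ASC1-like, 6.2% in stromal-like, 31.7% in macrophage-like, 0.189% in ASC2-like, 0.182% in endothelial-like and 0.0523% in mural-like cells. No member passed the filter in ASC3-like, Schwann-like, dendritic-like or lymphoid-like cells. Of the 16 tests 4 were of Adrb3, with 1 call, in ASC1-like cells. In stromal-like, ASC1-like and ASC2-like cells Adrb3 had 0 to 3 UMIs per RT library and entered through the treated groups. In endothelial-like cells it had 4 and 2 UMIs in the RT libraries and entered through treated libraries too. All 4 of its tests are therefore no support. Of the 12 tests of other members 4 were called. Adra1a in ASC1-like cells and Adrb1 in macrophage-like cells are among these. Both entered through RT, where they were high, so their calls are no support either. With the replicate block 8 of the 16 were called, Adrb3 in ASC1-like and stromal-like cells among them. COLD and CL were compared with the same RT libraries.

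The 16 tests of CL against RT, in the 6 classes and subtypes just named, gave 0 edgeR calls, 8 at an unadjusted p under 0.05 and 2 DESeq2 calls, against backgrounds of 1.09% in ASC1-like, 0.0781% in stromal-like, 0.0172% in ASC2-like, 4.33% in macrophage-like and 0.0% in mural-like and endothelial-like cells. Of the 8 unadjusted results 4 were of Adrb3, which in each of these classes entered through treated libraries where it was high. In ASC1-like cells Adrb1 was 1.13 higher in CL (SE 0.30, adjusted p = 0.14), Adrb3 4.47 higher (SE 1.16, adjusted p = 0.14) and Adra1a 1.71 lower (SE 0.56, adjusted p = 0.22). With the replicate block Adrb3 was 4.70 higher there and was called (adjusted p = 0.0299), the only 1 of the 16, with the same limit that it passed the filter through the treated groups. Without CL replicate 2, whose libraries share barcodes, calls were made, but CL is then 1 library, assumed to vary like the other groups. These calls compare that pool alone with RT. They include Adra2a in mural-like cells, which is not among the 16 tests and entered through that CL library. They also include Adrb3 in stromal-like and ASC1-like cells, which entered through the treated groups. Adrb1 in macrophage-like cells was called there as well, and the replicate left out (6.46 CPM) lay nearer to RT than the one kept (1.09 CPM). Adra2a in mural-like cells was at 0 and 1.41 CPM in RT, 1.28 and 3.71 CPM in COLD and 80.3 and 10.5 CPM in CL. It did not pass the filter on low counts with all libraries, so these levels are given without a test.

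In mural-like cells, where most members had their highest level, no member passed the test for cold. Their Adrb1 was at 72.6 and 163 CPM in C57 RT and 47.2 and 84.5 CPM in COLD (-0.62, SE 0.33, adjusted p = 0.69). Adra1a was at 14.5 and 14.1 CPM in RT and 29.4 and 21.4 CPM in COLD (0.86, SE 0.41, adjusted p = 0.65), and Adra1b at 11.3 and 25.2 CPM in RT and 26.7 and 25.8 CPM in COLD (0.72, SE 0.38, adjusted p = 0.69). In the Adrb1 line Adrb1 was higher in WT COLD (66.8 CPM) than in WT RT (50.3 CPM), the other order than in C57, and nearly level in KO (81.0 CPM at RT and 79.8 CPM in COLD). Its Adra1a had the other order, with 32.0 and 11.1 CPM in WT RT and WT COLD and 17.4 and 5.00 CPM in KO RT and KO COLD.

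Tested as a class by treatment term over the 4 C57 RT and COLD Lin- libraries, the cold response of the mural-like cells differed from that of the stromal-like cells for all 3 genes with a test. It was 3.06 higher for Adra1a (SE 0.57, edgeR adjusted p = 0.0068), 2.61 higher for Adra1b (SE 0.41, adjusted p = 0.0027) and 2.33 lower for Adrb1 (SE 0.37, adjusted p = 0.0029), against a background of 7.93% of genes. All 3 held in the 4 fits that left out a library and in the 4 other alternatives. Adra1a and Adrb1 passed the filter on low counts of this fit through the mural-like cells, where they were high. The calls on these 2 genes therefore describe the levels and carry no further weight. Both classes changed in make-up between the groups. ASC2-like cells fell from 34.8% and 27.3% to 20.4% and 19.9% of the stromal-like cells, and cells with pericyte markers from 62.2% and 58.0% to 34.4% and 45.2% of the mural-like cells. The part of these shifts in the differences was not tested. Against endothelial-like cells 0 of 3 tests passed (2 at an unadjusted p under 0.05, 0 by DESeq2), where the background was 12.0%.

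The receptors act through a list of 49 genes for G proteins, adenylyl cyclases, PKA subunits, cyclic AMP phosphodiesterases, receptor kinases and arrestins, phospholipase C β and other effectors. In ASC1-like cells 9 of the 43 tested (20.9%) were called in COLD against 15.1% of all genes, 3 higher and 6 lower, with a median log2 difference of -0.21 for the list and -0.01 for all genes. Pde4b, a phosphodiesterase that breaks down cyclic AMP, rose by 1.98 (SE 0.23, edgeR adjusted p = 0.0030), and Prkar2b, a regulatory subunit of PKA, by 2.16 (SE 0.28, adjusted p = 0.0041). Rapgef3, an exchange factor activated by cyclic AMP, fell by 1.59 (SE 0.24, adjusted p = 0.0072) and Akap12, an anchor for PKA, by 1.45 (SE 0.22, adjusted p = 0.0073). These 4 were also called without cells holding an adipocyte marker. They had the same order in the Adrb1 line, where temperature and kit cannot be told apart, but Prkar2b differed less there. It was at 46.7 and 76.8 CPM in WT RT and WT COLD and at 70.9 and 82.5 CPM in KO RT and KO COLD. In C57 it was at 28.6 and 35.7 CPM in RT and 138 and 131 CPM in COLD. Of the G proteins 0 of 8 and of the receptor kinases and arrestins 0 of 7 were called.

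In macrophage-like cells, beside the fall of Adrb1, 18 of 37 listed genes (48.6%) were called in COLD against 31.7% of all genes, 5 higher and 13 lower. Receptor kinases and arrestins, which switch activated receptors off, had 4 of 7 called, all lower, such as Arrb1 (-1.38, SE 0.17, edgeR adjusted p = 0.0013). Pde3b (-1.89, SE 0.24, adjusted p = 0.0014) and Pde7a (-1.20, SE 0.21, adjusted p = 0.0045), both phosphodiesterases, fell as well, and Gnas, which encodes the Gs α subunit that β receptors use, rose by 1.06 (SE 0.20, adjusted p = 0.0067). Arrb1 (-0.81, SE 0.17, adjusted p = 0.0422) and Pde3b (-1.11, SE 0.24, adjusted p = 0.0429) were also the 2 of 37 called in CL (5.41%, background 4.33%).

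The list was also compared between the classes where the receptors were highest. In mural-like against stromal-like cells 28 of 41 listed genes (68.3%, background 61.1%) were called, 23 higher and 5 lower, with a median of 0.61 for the list and -0.02 for all genes. Grk3, a kinase of activated receptors, was 4.79 higher (SE 0.26) and the adenylyl cyclase Adcy6 2.16 higher (SE 0.12). The PKA subunits Prkar1b and Prkar1a were 3.75 (SE 0.22) and 1.49 (SE 0.091) higher. All 6 adenylyl cyclases tested were called, 5 higher and 1 lower. ASC2-like cells, the stromal source of Adra1b, had 25 of 42 called against ASC1-like cells (59.5%, background 45.8%), 13 higher and 12 lower, among them Pde8a (2.66 higher, SE 0.12) and Prkar2b (-2.66, SE 0.17). Gnao1, a G protein α subunit, and the adenylyl cyclase Adcy4 were lower there as well (-2.07, SE 0.19, and -1.95, SE 0.18).

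The genes most like each receptor were ranked by Pearson's r of log2(CPM + 1) over 56 points (7 classes in 8 experiments), among 15151 genes. The 7 points of an experiment come from the same mice and 2 libraries, so r is given as a description. Adrb1 was most like Gm32389 and Ybx2 (r = 0.898 for both), Cacna1c (0.895), Svopl (0.894) and Gdf5 (0.893), all highest in mural-like cells. Adrb3 was most like Adipoq (0.928), Adig (0.896), Elovl3 (0.868) and Clstn3 (0.850). Adipoq and Elovl3 are known as genes of adipocytes.

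Adra1a was most like Col4a6 (0.944), Slc22a3 (0.927), Lrrc10b (0.922), Gpbar1 (0.922) and Cacna1c (0.921). Cacna1c, a voltage-gated calcium channel of smooth muscle, was near both Adrb1 and Adra1a. Adra1b was most like Cpxm2 (0.951), Frk (0.947), Bmp5 (0.946), Sobp (0.936) and Adcyap1r1 (0.931), which all had their 2 highest class means in stromal-like and mural-like cells. Adra2b was most like Actc1 (0.912), a cardiac actin, Synpo2l (0.903), Gucy2g (0.896), Hrc (0.891) and Hrk (0.890). Adra2a had no close match, its highest r being 0.638 for Gpr176, and Adra1d had too few UMIs to rank.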

How the data were processed

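Libraries were made from sorted iBAT cells on the 10x Chromium platform. The authors aligned reads and counted UMIs with Cell Ranger 3.0.1 (mm10) and removed ambient RNA with SoupX, so the deposited values are expected counts that need not be whole. Here the study's filters on genes, total UMIs and mitochondrial reads were applied to each cell. A cell joined a class when at least 2 markers of it were detected, with a lead of 2 over any other class. No doublet caller was run, and a cell with markers of another class stayed in its class where the lead held (4.77% to 53.9% of endothelial-like cells held an adipocyte marker). Counts were summed per library and class, rounded and tested with edgeR 4.0.16 (quasi-likelihood, TMM, filterByExpr, Benjamini-Hochberg over all genes of a comparison, threshold 0.05). DESeq2 1.42.0 was an alternative, and the scripts were tested on simulated data. Neighbouring classes were compared on log2(CPM + 1), pseudocount 1, with a two-sided exact sign-flip permutation test over 8 experiments. Per-library values are unaltered; fold changes are the fit's. Replicate libraries of a group differed beyond counting error, so none was merged.

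The members and gene lists were chosen with earlier results of these data known. All 7 members are accounted for. The pathway genes named are, in each comparison described, the 4 with the smallest p among those called (2 where 2 were called), and likeness was ranked for members with at least 100 UMIs, 5 genes each. 1 gene of the Adrb3 ranking is not reported here.

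The study's methods merge libraries of the same replicate number as 1 experiment. Of 21 correlations of the deviations of same-numbered libraries from their group means, 13 were over 0.1 (-0.09 to 0.50), and the unblocked fit was kept as main. Treatment tests used the C57 libraries, class tests also the WT libraries, and KO against WT the Adrb1 line. No protein or promoter sequence was used.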

Additional observations from a re-analysis of the deposited data

Results flagged for a closer look

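The cold response differed between mural-like and stromal-like cells for 3 receptor genes, each by a test of the difference itself (a class by treatment term in edgeR over the 4 C57 RT and COLD Lin- libraries). For Adra1a the mural-like response was 3.06 higher on the log2 scale (SE 0.57, adjusted p = 0.0068), for Adra1b 2.61 higher (SE 0.41, adjusted p = 0.0027), and for Adrb1 it differed by -2.33 (SE 0.37, adjusted p = 0.0029). Adra1a and Adrb1 passed the filter on low counts through the mural-like cells, where they were high, so their calls describe the levels and carry no further weight. In mural-like cells of the Adrb1 line, Adra1a had the other order by temperature in WT and KO, and Adrb1 had it in WT. Both classes also changed in make-up between RT and COLD, and the part of these shifts was not tested. Within mural-like cells none of the 3 genes passed the test for cold, and within stromal-like cells only Adrb1 did in the main fit. With the replicate number as a block Adra1a and Adra1b passed in stromal-like cells too. The Adrb1 call there was lost without any one RT or COLD library.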

How the results depend on the processing

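No difference called in the main fit changed sign. Of those not called, 10 did under some alternative, where they again were not called. With DESeq2 Adra1b in Schwann-like against endothelial-like cells became 0.23 (0.024 with the stricter gate) and Adrb1 in CL endothelial-like cells 0.095 (0.039 with the replicate block). With the stricter gate Adra1a in KO stromal-like cells became 0.031 and the endothelial-like against stromal-like cold response of Adra1b -0.40. With a library left out that response ran from -4.90 to 2.40, Adrb1 in endothelial-like against stromal-like cells from -0.42 to 0.099, in COLD endothelial-like cells from -1.02 to 0.55 and in CL endothelial-like cells from -1.07 to 1.13, Adrb3 in the last from -0.0028 to 2.48, Adra1b in CL stromal-like cells from -1.57 to 0.025, and in CL mural-like cells Adra1a from -0.50 to 0.62 and Adra1b from -0.13 to 0.83. The 5 calls after cold became 8 with DESeq2, 8 with the replicate block, 11 with no filter on low counts, 2 without cells holding an adipocyte marker (chosen after seeing the data), 4 without cycling cells (likewise) and 0 to 9 when each library was left out (0 without C57 RT replicate 2, 1 without RT replicate 1 or COLD replicate 1, 2 without COLD replicate 2, 9 without either CL replicate). The 0 calls in CL became 2 with DESeq2, 8 with no filter, 1 with the replicate block and 0 to 6 with a library left out (6 without CL replicate 2, 0 without any other). A treatment fit without a library leaves 1 in its group, assumed to vary like the other groups. The calls without CL replicate 2 include Adra2a in mural-like cells, which had no test in the main fit. The 8 calls between Lin- classes became 16 with no filter and 7 to 11 with a library left out, the 0 between Lin+ classes 5 with no filter and 0 in every leave-one-out fit, and the 3 between stromal subtypes 10 with no filter and 3 to 6 with a library left out (5 without C57 COLD replicate 1, 6 without C57 RT replicate 2 or WT RT replicate 1). Calls on the difference in cold response numbered 3 to 4. Adrb1 in KO ASC1-like cells was not called by DESeq2 (-3.91, adjusted p = 1.00) or with all 10 libraries (-5.83, adjusted p = 1.00), and in stromal-like cells it was called with no filter (-2.50, adjusted p = 0.0011). The replicate block, run for COLD and CL against RT, changed no other call than those given with these comparisons. The causes were not tested. No library can be left out of KO against WT, which has 1 per genotype and temperature. The stricter gate, rounding of each entry, and leaving out the shared barcodes kept these counts within 1.5 times. Depth limits Adra1d, Adra2a and Adra2b most, with 5 to 176 UMIs in the 7 classes.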

Other observations

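In the Lin+ library of WT RT, Adra2a stood at 10 UMIs in macrophage-like (7.17 CPM) and 10 UMIs in lymphoid-like cells (2.13 CPM), whereas no other Lin+ library held more than 2 in either class. The summed level of 6 epithelial markers in these cells was 1.42 CPM in macrophage-like and 10.4 CPM in lymphoid-like cells, within the 0 to 7.79 and 5.40 to 20.6 CPM of all 10 Lin+ libraries. Cells that the gate left without a class held Adrb3 at 79.1 and 49.3 CPM in the 2 C57 COLD Lin- libraries, against 0 CPM in the 2 RT libraries.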
